A study of Mus musculus with 6 samples.

Results

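Laminin-332 and the hemidesmosome are the anchoring apparatus of many epithelia, and 9 genes of this apparatus were followed here among the 24404 genes listed for bile duct cells. The members, taken by gene symbol, were the laminin chains Lama3 and Lamb3, the integrin subunits Itga6 and Itgb4, the tetraspanin Cd151, the transmembrane collagen Col17a1, the cytolinkers Plec and Dst, and the basement membrane zone protein Lad1. They were chosen by symbol with their measured differences between Klf5 LKO and control in view, and these fold changes are therefore described below without a p-value for any member and are not used as support. All 9 had a mean normalised count of at least 10 and were among the 13490 genes tested. Col17a1 passed that minimum narrowly, at a mean of 10.5, and only through Klf5 LKO (mean 17.8, against 3.16 in control).

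Biliary epithelial cells were obtained from intrahepatic bile ducts of adult C57BL/6 mice, all given DDC (a compound fed to mice as a model of cholangitis) for 1 week. The Klf5 LKO group (3 libraries) had the genotype Alfp-CreTg/+;Klf5flox/flox, in which an Alfp-driven Cre recombinase acts in liver epithelial cells on a floxed gene for the transcription factor Klf5. The control group (3 libraries) had the genotype Alfp-Cre+/+;Klf5flox/flox, with the same floxed alleles and no Cre transgene, so that Cre itself and the loss of Klf5 cannot be told apart. Alfp-Cre is active in hepatocytes as well as in biliary cells, and uninjured mice were not analysed here. Nothing in the labels ties a library to its own animal, so the spread given below is between libraries and may be partly technical.

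As background, laminins are trimers of an alpha, a beta and a gamma chain that are secreted into the basement membrane. Laminin-332 holds the alpha-3 and beta-3 chains, encoded by Lama3 and Lamb3, and it is bound by integrin alpha-6 beta-4 and by integrin alpha-3 beta-1. In stratified epithelia, integrin alpha-6 beta-4, collagen XVII, plectin, the epithelial form of dystonin and CD151 form hemidesmosomes, which tie laminin-332 to keratin filaments inside the cell. Simple epithelia can carry a reduced form that rests on the integrin and plectin without collagen XVII.

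The libraries held between 11726934 (control 2) and 24784167 (Klf5 LKO 2) reads assigned to genes, and the values are read counts divided by 1 size factor per library. Klf5 itself was lower in each Klf5 LKO library (977, 1192 and 1183 normalised counts) than in each control library (2056, 2018 and 2316), with exons outside the floxed part included. The labelled cell type was checked with 9 biliary markers (Epcam, Krt7, Krt19, Sox9, Spp1, Cftr, Sctr, Tspan8 and Cldn7), all of which were detected in every library. Their summed normalised count ranged from 420851 to 538402 in control and from 358411 to 424534 in Klf5 LKO, most of it from Spp1, the gene for osteopontin. Of the 9, Tspan8 passed the limma test as lower (10598, 11060 and 9583 in control 1 to 3 against 7174, 5568 and 6213 in Klf5 LKO 1 to 3) and Sctr, the secretin receptor, as higher (717, 684 and 701 against 1170.0, 1243 and 1203). In these bulk samples, fewer cells of a type and less RNA per cell cannot be told apart. Basal and squamous epithelium, where hemidesmosomes are best known, left almost no trace apart from Ivl. Of its 8 markers, 3 (Krt5, Krt6a and Krt13) had no read in any library, and of the others only Ivl had a mean of at least 10. Ivl stood at 152, 164 and 212 in control 1 to 3 and at 94.5, 247 and 142 in Klf5 LKO 1 to 3.

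The alpha-3 and beta-3 chains of laminin-332 were several-fold lower in Klf5 LKO. The difference was 11.9-fold for Lama3 and 8.36-fold for Lamb3. The integrin subunits, plectin and dystonin had overlapping values in the groups, with log2 fold changes between -0.17 and 0.10. Lad1 was lower by a smaller amount, 1.71-fold.

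Since Klf5 is a DNA-binding factor of the family that recognises CACCC and GC boxes, the 250 bases before annotated start sites were read for the members that RefSeq promoter sequences covered (GRCm38.p6, the assembly of mm10). Entries were found for 5 of the 9 members: Lamb3, Col17a1, Cd151, Dst and Lad1. For Lamb3 and for Cd151 the window of the first of the 2 start sites in the table is shown, and that start site of Lamb3, at 193301994, lies inside the longer gene that GENCODE annotates. The pattern CCNCNCCC, a loose CACCC or GC box, and TGANTCA, the AP-1 site, were searched on both strands. Shown are Lamb3 and Lad1, which were lower in Klf5 LKO, and Cd151, whose groups overlapped, each 5′ to 3′ on the gene's strand, with matches to CCNCNCCC on either strand in capitals.
Lamb3, chr1:193301744-193301993, plus strand: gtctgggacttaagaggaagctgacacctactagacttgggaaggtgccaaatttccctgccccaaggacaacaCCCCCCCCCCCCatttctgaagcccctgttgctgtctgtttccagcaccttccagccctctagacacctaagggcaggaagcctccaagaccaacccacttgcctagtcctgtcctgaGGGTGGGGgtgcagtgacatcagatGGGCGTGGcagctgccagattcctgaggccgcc
Lad1, chr1:135818348-135818597, plus strand: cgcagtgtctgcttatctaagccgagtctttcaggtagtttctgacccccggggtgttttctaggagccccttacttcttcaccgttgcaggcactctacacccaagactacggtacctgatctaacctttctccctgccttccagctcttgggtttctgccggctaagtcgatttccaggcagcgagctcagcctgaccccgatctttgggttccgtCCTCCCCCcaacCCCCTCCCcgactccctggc
Cd151, chr7:141467112-141467361, plus strand: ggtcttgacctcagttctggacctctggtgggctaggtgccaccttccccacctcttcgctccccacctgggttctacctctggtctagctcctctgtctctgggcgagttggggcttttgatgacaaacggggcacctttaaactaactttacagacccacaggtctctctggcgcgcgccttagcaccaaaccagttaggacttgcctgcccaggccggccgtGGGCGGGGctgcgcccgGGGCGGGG

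The Lamb3 window held 3 matched stretches, of which the first, 176 to 165 bases before the start site, is a run of cytosines that matches at several overlapping positions. The others lay 58 to 51 and 33 to 26 bases before the start. Lad1 held 2 stretches, 32 to 25 and 20 to 13 bases before its start, and Cd151 also held 2, 25 to 18 and 8 to 1 bases before. The Col17a1 window held 1, and neither of the 2 Dst windows held any. The pattern is common: 45.9% of the 32851 promoter windows of this length in the table held it. TGANTCA was found in 6.75% of all windows and in none of those of these 5 genes. A match is a run of letters and no measure of binding.

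Lama3 (ENSMUSG00000024421.16; mm10 chromosome 18, 12333819 to 12583013, plus strand) encodes the alpha-3 chain, whose C-terminal globular domains bind the integrins. Its normalised counts were 437, 395 and 494 in control 1 to 3 and 50.9, 30.6 and 29.8 in Klf5 LKO 1 to 3. All Klf5 LKO libraries lay far below all control libraries, and the highest Klf5 LKO value, in library 1, was still well under the lowest control value. Control averaged 442 ± 49.5 and Klf5 LKO 37.1 ± 12.0 (SD, n = 3 each), and the log2 fold change was -3.58 (SE 0.33). The low values rested on 62, 41 and 28 reads, above the level of 3 reads that 0 observed reads could still allow. Whichever library was left out, the log2 fold change stayed between -3.82 and -3.45.

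Lamb3 (ENSMUSG00000026639.18; mm10 chromosome 1, 193207699 to 193343878, plus strand) encodes the beta-3 chain, which among the laminins is known only from trimers of the laminin-332 type. Its normalised counts were 4061, 4873 and 4568 in control 1 to 3 and 625, 591 and 416 in Klf5 LKO 1 to 3. The groups were again far apart, and Klf5 LKO 3 held the lowest value. Control averaged 4500.5 ± 410 and Klf5 LKO 544 ± 112 (SD, n = 3 each), and the log2 fold change was -3.06 (SE 0.17). What remained was 12.1% of the control mean for Lamb3 and 8.40% for Lama3. Leaving out 1 library at a time gave log2 fold changes for Lamb3 from -3.17 to -2.88.

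**Figure D1:**
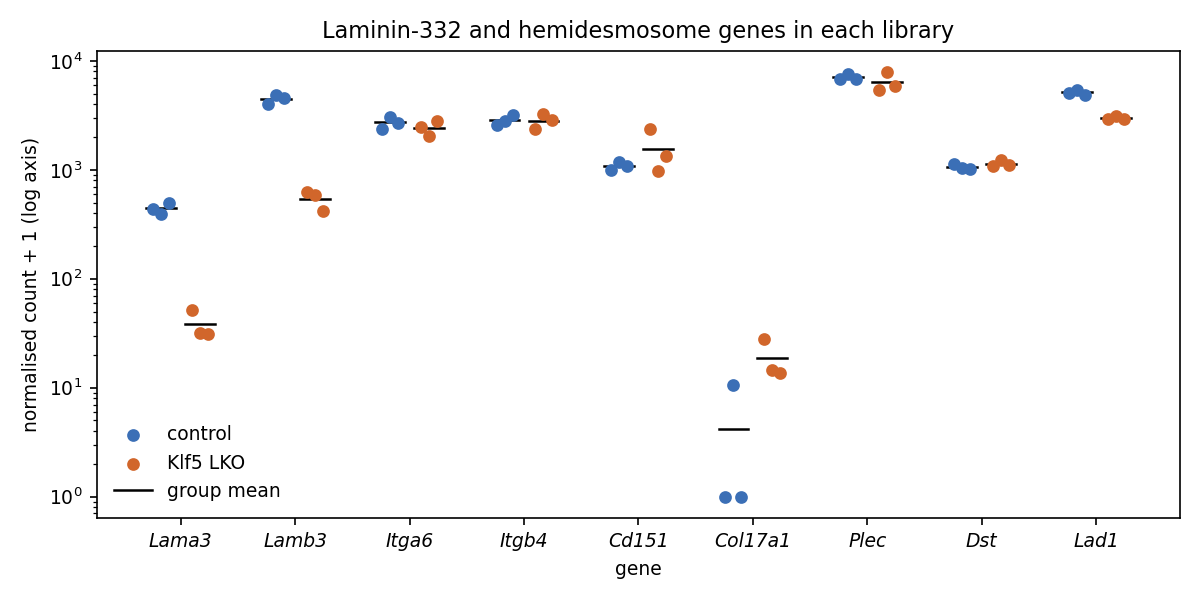
Normalised count plus 1 (log axis) of the 9 members in each library, with control libraries in blue, Klf5 LKO libraries in orange and the mean of each group as a black line. Lama3 and Lamb3 separate widely, Lad1 separates by less, and Itga6, Itgb4, Cd151, Plec and Dst overlap.

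The make-up of the alpha-chain and beta-chain transcripts was set out per library. For this, normalised counts were divided by the exon length of each gene in kb, and each chain was expressed as a share of its class. Lamb3 made up 58.0%, 56.1% and 54.4% of beta-chain transcripts in control 1 to 3 and 11.7%, 10.2% and 9.35% in Klf5 LKO 1 to 3. In every control library the beta-3 chain was thus the most abundant beta chain per length, and in every Klf5 LKO library it was the least abundant. The rest of the class was Lamb2, with 31.0% ± 0.19 of the class in control against 60.9% ± 2.54 in Klf5 LKO, and Lamb1, with 12.9% ± 1.61 against 28.7% ± 2.85 (SD, n = 3 each).

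Behind these shares, Lamb2 had 2733 ± 316 and 3481 ± 581 normalised counts (SD, n = 3 each; limma adjusted p = 0.436) and Lamb1 1190 ± 258 and 1682 ± 63.5 (limma adjusted p = 0.263). The sum of the 3 beta chains per kb was 1567 ± 176 in control and 1012 ± 131 in Klf5 LKO.

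Among alpha chains Lama3 was minor in both groups. It held 4.21%, 3.75% and 3.95% of alpha-chain transcripts per length in control 1 to 3 and 0.383%, 0.226% and 0.235% in Klf5 LKO 1 to 3. Lama5, the alpha-5 chain found in most adult epithelial basement membranes, held 60.7% ± 2.12 in control and 52.0% ± 5.09 in Klf5 LKO, and Lama4, the alpha-4 chain, 35.3% ± 2.33 and 47.7% ± 5.01 (SD, n = 3 each).

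Such shares carry the errors of the exon lengths, taken from GENCODE M21, and of any unequal coverage along transcripts, which is the same for both groups only if RNA quality was alike. RNA quality was not measured here.

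**Figure D2:**
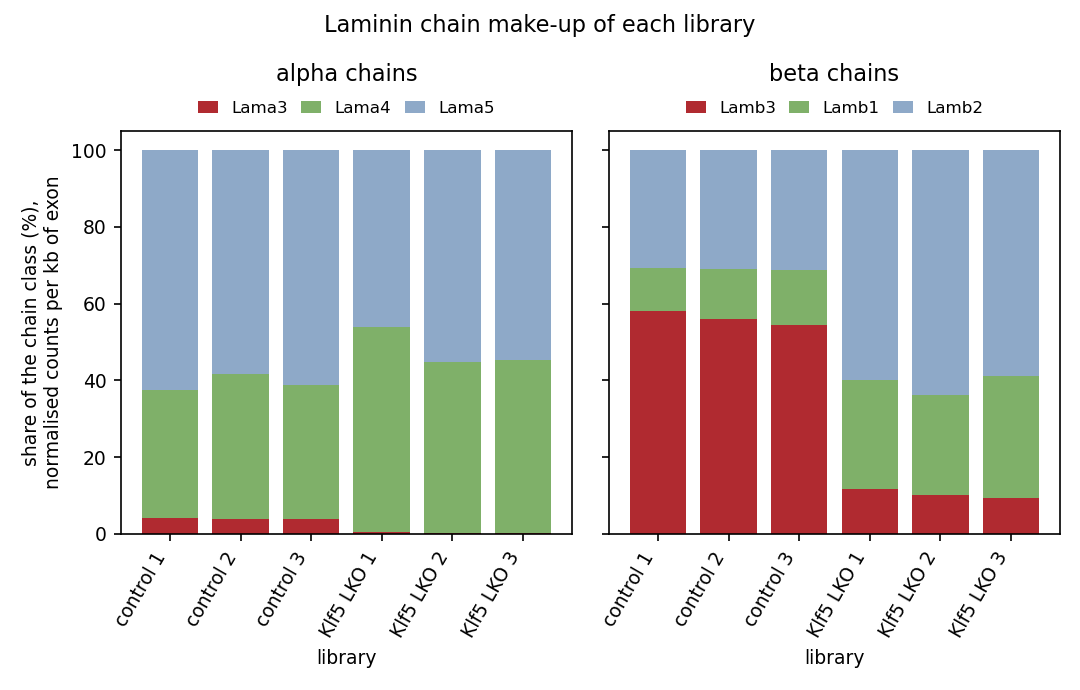
Share (%) of each alpha and beta chain among the transcripts of its class in each library, from normalised counts per kb of exon, with Lama3 and Lamb3 in red at the base of the bars. Lama1 and Lama2, at or near 0, are not drawn. Lamb3 drops from between 54.4% and 58.0% in control to between 9.35% and 11.7% in Klf5 LKO.

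The integrin receptor of laminin-332 had overlapping levels in the groups. Itga6 (ENSMUSG00000027111.15; mm10 chromosome 2, 71745616 to 71858416, plus strand), the alpha-6 subunit that also pairs with beta-1, stood at 2376, 3069 and 2710 normalised counts in the control libraries against 2462, 2042 and 2777 in Klf5 LKO. The lowest value belonged to Klf5 LKO 2 and the highest to control 2, with the rest intermixed, and the log2 difference was -0.17 (SE 0.15; 95% interval from -0.49 to 0.16).

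Itgb4 (ENSMUSG00000020758.15; mm10 chromosome 11, 115974709 to 116008412, plus strand) encodes the beta-4 subunit, whose long cytoplasmic tail binds plectin. The control libraries held 2576, 2783 and 3198 normalised counts, and the Klf5 LKO libraries 2361, 3255 and 2847. Klf5 LKO libraries held both the lowest and the highest value, and the log2 difference was -0.022 (SE 0.15; 95% interval from -0.34 to 0.30). Beta-4 transcripts per alpha-6 transcript, per length, were 0.722 ± 0.095 in control and 0.815 ± 0.239 in Klf5 LKO (SD, n = 3 each), where Klf5 LKO 2 stood at 1.09 and the other 5 libraries lay between 0.619 and 0.806.

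Cd151 (ENSMUSG00000025510.14; mm10 chromosome 7, 141467392 to 141471473, plus strand) encodes a tetraspanin that associates with laminin-binding integrins. Normalised counts reached 994, 1168 and 1074 in the control libraries against 2349, 984 and 1346 in Klf5 LKO. Klf5 LKO 1 stood alone at a high value, Klf5 LKO 2 had the lowest of all 6, and the groups overlapped. The log2 difference was 0.44 (SE 0.25; 95% interval from -0.11 to 0.99) with all libraries and 0.10 without Klf5 LKO 1.

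Col17a1 (ENSMUSG00000025064.15; mm10 chromosome 19, 47646344 to 47692094, minus strand), the transmembrane collagen of classical hemidesmosomes, was barely detected. Its reads were 0, 6 and 0 in control 1 to 3 and 33, 18 and 12 in Klf5 LKO 1 to 3. The normalised counts were 0, 9.48 and 0 against 27.1, 13.4 and 12.8. The Klf5 LKO values were all above the control values, but at the depth of control 1 and control 3 a count of 0 allows up to 2.76 and 3.05 normalised counts, and at control 2, the shallowest library, 3 reads equal 4.74. Its log2 fold change of 3.02 (SE 1.34) depended on the pseudocount, at 3.67 with a pseudocount of 0.5 and 1.62 with one of 5. It ranged from 2.45 to 4.15 in the 4 leave-one-out fits that kept the gene, and was 4.15 without control 2. Without Klf5 LKO 1 or without Klf5 LKO 2 its mean fell under 10 and it was not fitted. Per length, Col17a1 stood at 0.566 ± 0.980 normalised counts per kb in control and 3.18 ± 1.45 in Klf5 LKO (SD, n = 3 each), against 447 ± 49.7 and 442 ± 70.1 for Itgb4.

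The cytolinkers that tie the integrin to keratin were present at overlapping levels. Plec (ENSMUSG00000022565.15; mm10 chromosome 15, 76170974 to 76232574, minus strand) encodes plectin, the link between integrin beta-4 and intermediate filaments. The control libraries held 6862, 7643 and 6866 normalised counts, and the Klf5 LKO libraries 5449, 7908 and 5842. The Klf5 LKO libraries spread more widely, with Klf5 LKO 2 above all controls and the other 2 below them, and the log2 difference was -0.17 (SE 0.15; 95% interval from -0.49 to 0.15).

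Dst (ENSMUSG00000026131.18; mm10 chromosome 1, 33908225 to 34308661, plus strand) encodes dystonin, known as BPAG1, which has epithelial, neuronal and muscle forms. The control libraries held 1126, 1034 and 1009 normalised counts and the Klf5 LKO libraries 1074, 1229 and 1100, again overlapping, and the log2 difference was 0.10 (SE 0.14; 95% interval from -0.20 to 0.41). Which form the reads came from was not analysed here, and its union exon length of 32.1 kb covers all forms.

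Lad1 (ENSMUSG00000041782.14; mm10 chromosome 1, 135818598 to 135833342, plus strand) encodes ladinin 1, a protein first described in the basement membrane zone and also found at actin filaments of epithelial cells. It had 5037, 5435 and 4912 normalised counts in control 1 to 3 and 2933, 3097 and 2945 in Klf5 LKO 1 to 3. The groups were cleanly separated, with little spread inside either. Its promoter window and that of Lamb3 both held CCNCNCCC, as did that of Cd151. Control averaged 5128 ± 273 and Klf5 LKO 2992 ± 91.5 (SD, n = 3 each), and the log2 fold change was -0.78 (SE 0.11), and it ranged from -0.81 to -0.73 when 1 library was left out.

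The levels of the members can be ranked per length. In control the order was Lad1 (1713 ± 91.3 normalised counts per kb), Lamb3 (878 ± 80.0), Itga6 (623 ± 79.5), Cd151 (556 ± 44.9), Itgb4 (447 ± 49.7), Plec (407 ± 25.7), Lama3 (41.1 ± 4.61), Dst (32.9 ± 1.92) and Col17a1 (0.566 ± 0.980). Of neighbours in this order, the library values of Itga6 and Cd151 overlapped, as did those of Itgb4 and Plec, while the other neighbours were separated. The lengths cover all annotated forms of a gene (10.7 kb for Lama3 and 32.1 kb for Dst). Which forms were expressed was not analysed, so the order depends on the annotation too. In Klf5 LKO, Lamb3 (106 ± 21.9 per kb) stood below Plec (365 ± 75.4), and Lama3 (3.45 ± 1.12) stood below Dst (35.3 ± 2.59) and overlapped Col17a1 (3.18 ± 1.45).

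**Figure D3:**
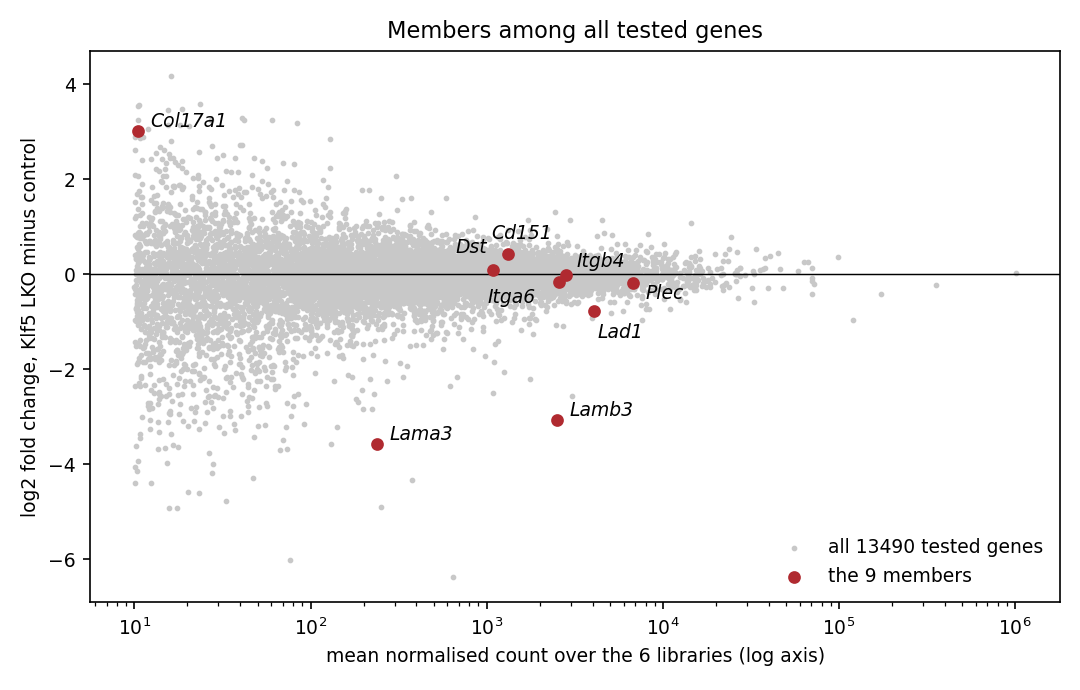
Log2 fold change of Klf5 LKO minus control against mean normalised count (log axis) for the 13490 tested genes in grey and the 9 members in red. Lama3 and Lamb3 lie far below the cloud at their levels, Lad1 at its lower edge, and Col17a1 at the far left, where counts are lowest.

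In the limma fit over all genes, 3 of the 9 members (Lama3, Lamb3 and Lad1) passed an adjusted p of 0.05 as lower and 0 as higher, where 0.489% of all tested genes passed as lower and 0.652% in either direction. Since this contrast was in view when the members were chosen, nothing is read from that count, nor from the overlap counts and the median given next. The called count became 2 of 9 without control 1 or without control 2, when Lad1 fell short. In 3 members the groups did not overlap with Klf5 LKO lower, against 7.88% of all tested genes, and in 1 (Col17a1) with Klf5 LKO higher, against 7.72%, or 15.6% in either direction. Col17a1 was tested only because its Klf5 LKO values lifted its mean over the minimum, so its direction was partly set by that filter. The median log2 fold change was -0.17 over the 9 members and -0.0052 over all tested genes. The authors' deposited table, whose fold changes are shrunken towards 0, gives log2 fold changes of -2.29 for Lama3, -2.64 for Lamb3 and -0.72 for Lad1. It gives 0.16 (SE 0.11) for Col17a1, far from the 3.02 of the limma fit, and 0.40 for Cd151. Those of Itga6, Itgb4, Plec and Dst lie between -0.14 and 0.091.

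Genes with the pattern most like that of Lamb3 were sought by Pearson's r of log2 values over the 6 libraries among 10734 other genes with a mean of at least 100. Since the libraries fall into 2 separate groups for Lamb3, such an r mostly reflects the group difference and is given as a description. The 5 highest were Tmem41a (r = 0.995), Kcnq1 (0.994), Arhgap11a (0.993), Pmepa1 (0.991) and Lama3 (0.991), followed by Lad1 in the sixth place (0.989). A high r does not mean a large difference. Tmem41a had 308 ± 8.38 normalised counts in control and 219 ± 4.52 in Klf5 LKO (SD, n = 3 each), 1.41-fold lower, and did not pass (limma adjusted p = 0.436). Kcnq1, a potassium channel subunit, had 1717 ± 119 normalised counts in control and 481 ± 59.4 in Klf5 LKO (SD, n = 3 each), and Pmepa1, a membrane protein that dampens TGF-beta signalling, 3677 ± 316 and 1742 ± 184. Itga6 (0.413), Plec (0.474) and Itgb4 (0.061) did not share the pattern, and Dst (-0.554) and Cd151 (-0.467) had negative values.

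None of the 43 pathway genes tested here passed. The lists as analysed held 49 further laminin, receptor, cytolinker, keratin, processing and basement membrane genes, all present in the table, and in the 43 tested with limma 0 rose and 0 fell at an adjusted p of 0.05. At an unadjusted p under 0.05 there were 11 of the 43 (10.9% of all tested genes), with DESeq2 3 (2.48% of all), and with edgeR and voom 0 (0.623% and 0.549% of all). The median log2 fold change of the 43 was -0.018. The groups did not overlap in 7 of the 43 with Klf5 LKO lower and in 6 with it higher, against 7.88% and 7.72% of all tested genes. By list, these counts (lower, then higher) were 0 and 2 for laminin chains, 3 and 0 for receptors, and 3 and 1 for cytolinkers and keratins. They were 0 and 3 for adaptors and processing genes, and 1 and 0 for basement membrane components. Since the lists were chosen with earlier results known, nothing is read from these counts.

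Among the other laminin chains, 6 of 8 were tested and none passed. Lama5 had 7165 ± 845 normalised counts in control and 7261 ± 713 in Klf5 LKO (SD, n = 3 each). Lama4, named after its values were seen, had 2213 ± 256 and 3538 ± 410, with the Klf5 LKO libraries all above the controls, a log2 fold change of 0.68 (SE 0.14) and adjusted p = 0.0532 in limma and 0.000439 in DESeq2. It also passed in limma with a pseudocount of 5 (adjusted p = 0.0440) and among genes with a mean of at least 50 (adjusted p = 0.0313). Lama4 is known from the laminins of endothelium and mesenchyme. The summed normalised count of 8 endothelial markers ranged from 402 to 719 in control and from 383 to 438 in Klf5 LKO. Egfl7 led this list, at 277, 267 and 270 in control 1 to 3 and 258, 285 and 217 in Klf5 LKO 1 to 3. Pecam1, named after its values were seen, stood at 37.7, 19.0 and 34.5 against 0, 6.71 and 1.06, and did not pass in limma. The groups overlapped in the other markers of the list. Some of these varied widely inside the groups, such as Kdr (0, 26.9 and 91.4 against 0, 18.6 and 8.52). Of the 8 stellate cell and fibroblast markers, Lrat, Col1a2, Col3a1 and Des were at 0 in every library, and the sum ranged from 14.7 to 49.8 in control and from 31.9 to 86.3 in Klf5 LKO. The part of such cells in the Lama4 values was not tested.

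Of 7 other laminin receptors, 0 passed. In 3 of them (Dag1, Bcam and Sdc1, named after their values were seen) the groups did not overlap with Klf5 LKO lower, and in 0 with it higher. The shares over all tested genes were 7.88% and 7.72%. Bcam had 7439 ± 376 normalised counts in control and 5133 ± 1648 in Klf5 LKO (SD, n = 3 each; limma adjusted p = 0.261). Itga3, the alpha-3 subunit of the second laminin-332 integrin, had 8185 ± 554 and 9775 ± 2066 normalised counts (limma adjusted p = 0.615), and Itgb1, its partner, 16049 ± 1328 and 15132 ± 2054 (limma adjusted p = 0.861; SD, n = 3 each). Sdc4, a heparan sulphate proteoglycan of focal adhesions, had 16127 ± 586 and 14246 ± 2571. Per length, Itga3 was 2.51 ± 0.19 times as abundant as Itga6 in control and 3.47 ± 1.29 times in Klf5 LKO. The higher mean came largely from Klf5 LKO 2, at 4.94. Klf5 LKO 1 stood at 2.97, and Klf5 LKO 3, at 2.50, lay inside the control range of 2.39 to 2.73.

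Among the other cytolinkers and keratins 9 of 11 were tested and none passed. Krt8 and Krt18, the keratin pair of simple epithelia, were abundant, with 71955 ± 5993 and 68382 ± 9553 normalised counts for Krt8 and 87255 ± 10572 and 111608 ± 13432 for Krt18 (SD, n = 3 each; limma adjusted p = 0.897 and 0.470). Krt5 had no read in any library and Krt14, its basal partner, had a mean of 1.85 in control and 0.274 in Klf5 LKO. With DESeq2 the ductal keratins Krt7 (adjusted p = 0.000905) and Krt19 (adjusted p = 0.00192) passed as lower, and in limma they had adjusted p = 0.0720 and 0.0988.

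Of 10 hemidesmosome-linked adaptors and laminin-processing genes, 9 were tested and 0 passed. The tetraspanins Cd9 (17300 ± 691 and 18945 ± 1277 normalised counts) and Cd81 (20459 ± 2284 and 22284 ± 2388; SD, n = 3 each) were the most abundant per length. Of 13 other basement membrane components, 12 were tested and 0 passed. The collagen Col18a1 had 13691 ± 599 and 14470 ± 2126, and the proteoglycan agrin (Agrn) 15420 ± 2625 and 15159 ± 2043.

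**Figure D4:**
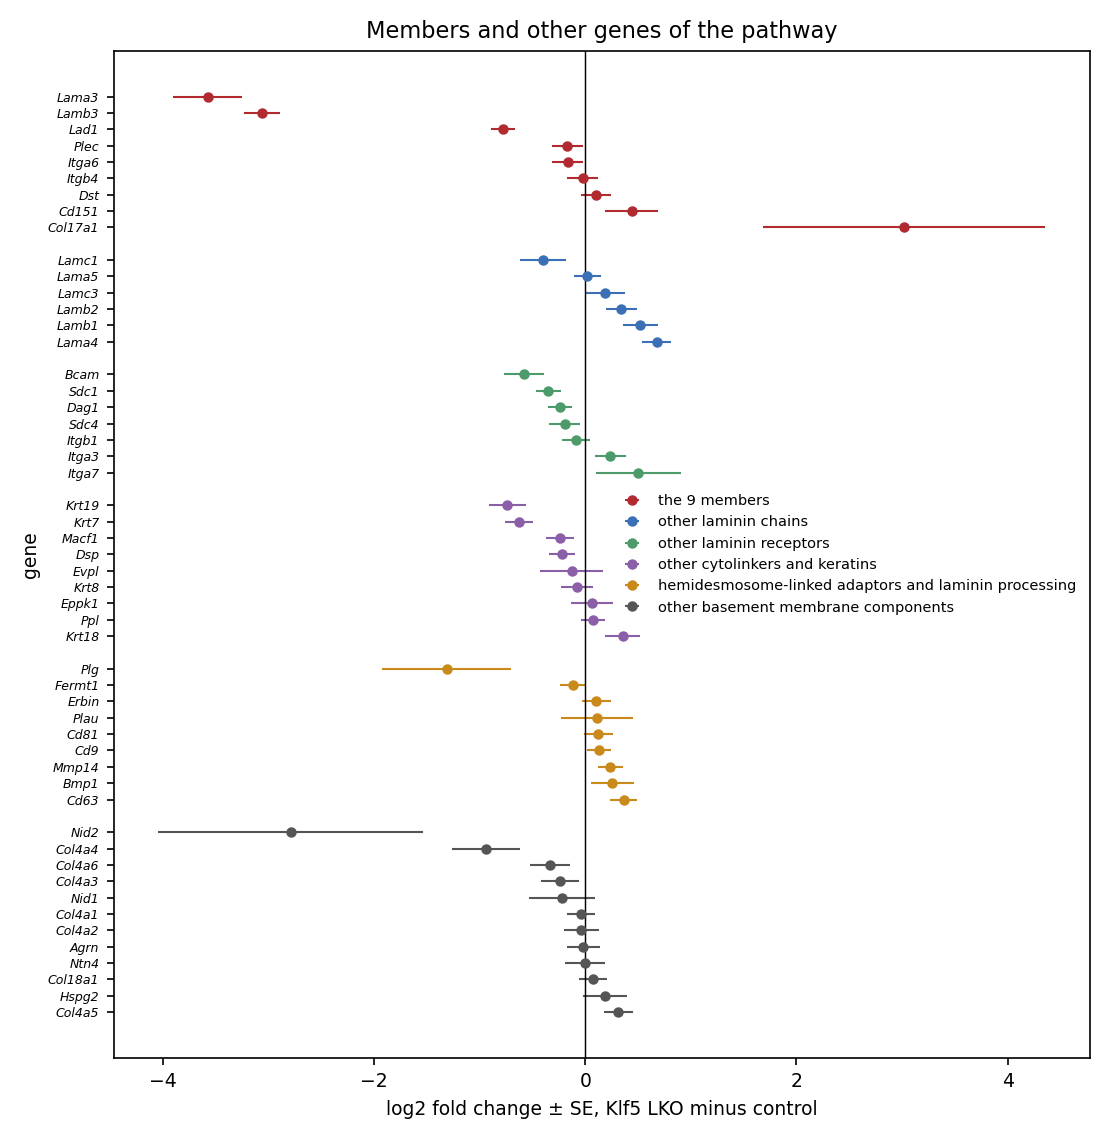
Log2 fold change of Klf5 LKO minus control, with its SE, for the 9 members (red) and the 43 tested genes of 5 pathway lists (other colours), ordered by value within each list. Lama3 and Lamb3 stand furthest from 0, followed by Col17a1 and Nid2, both at low counts.

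Transcripts of other cells were measured in each library. The summed normalised count of 9 leukocyte markers was 26599, 15199 and 4521 in control 1 to 3 and 20058, 7663 and 9340 in Klf5 LKO 1 to 3, most of it from Cd74, an invariant chain that injured epithelium can also express. Ptprc, which encodes the pan-leukocyte protein CD45, stood at 326, 258 and 16.3 in the control libraries against 97.8, 12.7 and 34.1 in Klf5 LKO. The part of leukocyte transcripts in the values of the members was not tested.

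The 6 mesothelial markers summed to between 2833 and 3027 in control and to between 1825 and 2045 in Klf5 LKO. This gap came from Msln (1165, 1302 and 1258 against 0, 103 and 30.9), the 1 marker of the list that passed the limma test. Its most abundant gene, Gpm6a, ranged from 1534 to 1829 in control and from 1815 to 1999 in Klf5 LKO, and Upk3b, Lrrn4, Wt1 and Upk1b stayed between 0 and 36.5. The part of Msln-expressing cells in the laminin differences was not tested. The 8 hepatocyte markers, led by Alb, summed to between 11096 and 14761 in control and between 9890 and 14343 in Klf5 LKO.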

How the data were processed

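Each library started from 4 ng of RNA and was amplified by 10 and then 7 PCR cycles, per the labels' protocols, and reads carry no molecular identifiers, so floors given for 0 reads cover counting error only. TopHat, Bowtie2, DESeq2 and the build mm10 are named in the processing, per the submitters' processing notes. Neither counter nor annotation is given in the sources used here, and reads of overlapping or antisense genes (Itgb4, Cd151, Dst and Lama3 share 8.41%, 9.90%, 3.01% and 1.83% of their exon bases with genes on the other strand) could not be told apart. The authors deposited a signal per gene and library, a read count divided by 1 size factor, and a table of log2 fold changes with a Wald score and p-values. In 100% of values the deposited signal was a whole multiple of 1 read (tolerance 0.001).

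Limma 3.58.1 (R 4.3.3, trend) was run on log2(value + 1) for 13490 genes (minimum mean 10), two-sided, with Benjamini-Hochberg adjustment; fold changes are on that scale and understate low genes. It calls 88 genes. DESeq2 1.42.0, edgeR 4.0.16 (quasi-likelihood) and voom on the recovered reads were alternatives and call 335, 84 and 74. The limma code was checked on simulated data. Named genes are the 9 members, Klf5, pathway genes that pass, the 2 most abundant per kb of each list that do not, Itga3 and 4 keratins (Krt8, Krt18, Krt5 and Krt14), the 5 genes most like Lamb3, and leading markers. Further genes whose values are given, among them Lama4, Lamb1, Krt7, Krt19, Tspan8, Sctr and Msln, fall outside this rule and were named with their values known. From the lists, 1 pathway gene and 1 marker are not reported here. Members and lists were chosen with earlier results of these data known. Lengths and positions are from GENCODE M21 on GRCm38; Erbin was found under its older symbol Erbb2ip.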

Additional observations from a re-analysis of the deposited data

How the results depend on the processing

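The log2 fold changes of Lama3, Lamb3 and Lad1 moved by less than the spread between libraries under every alternative run. The number of genes called was 335 with DESeq2 against 88 with limma, and between 14 (without control 2) and 105 (without Klf5 LKO 1) when 1 library was left out, with 49 without Klf5 LKO 3, 24 without control 1 and 53 without control 3. Of the pathway genes, 2 were called at a mean of at least 50 (Lama4 and Krt7), 1 with a pseudocount of 5 (Lama4), 3 with DESeq2 (Lama4, Krt7 and Krt19), and between 0 and 2 (Krt7 and Bcam, without Klf5 LKO 2) when 1 library was left out. Fold changes near 0 changed sign when 1 library was left out: that of Lama5 (0.021) ranged from -0.044 to 0.11, that of Col18a1 (0.071) from -0.047 to 0.14 and that of Agrn (-0.018) from -0.17 to 0.076. Without a test, that of Itgb4 ranged from -0.13 to 0.10. Same-numbered libraries of the groups did not deviate together in every pair (r = 0.185, -0.012 and 0.106), so the replicate number was not taken as a pairing; as a replicate block it gave 110 called genes, 3 members and 0 pathway genes. Col17a1 gave no value at a mean of at least 50, without Klf5 LKO 1 or without Klf5 LKO 2.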
